A study of Mus musculus with 112 samples.

Results

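A set of 8 genes of cellular iron traffic were followed across sorted cells of the mouse small intestinal crypt. They are the importers Slc11a2 and Tfrc, the ferric reductase Cybrd1, the ferritin subunits Fth1 and Ftl1, the exporter Slc40a1, the ferroxidase Heph and the RNA-binding regulator Ireb2. They form a list taken by gene symbol, and each symbol matched a single gene of the 32285 in the deposited counts. Intestinal stem cells (ISCs) were gated on high Lgr5-GFP, and progenitors on medium or low GFP. Either gate also asked for high Epcam with low CD24. Paneth cells, the secretory neighbours of the stem cells at the crypt base, were gated on high CD24, high side scatter and high Epcam without GFP. All mice, young and aged alike, were C57BL/6 carrying Lgr5-eGFP-IRES-CreERT2, an insertion that expresses GFP and an inducible Cre from the Lgr5 locus. No induction of the Cre is described in the labels. Young mice were 2 to 3 months old and aged mice 23 to 27 months. ISCs came from 5 young males, 6 young females, 7 aged males and 5 aged females, and progenitors from 5 mice in each of these groups. Paneth cells came from 6 young males, 6 young females, 7 aged males and 5 aged females.

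Iron from the diet is reduced at the brush border by the Cybrd1 product (DCYTB) and carried into the cell by the Slc11a2 product (DMT1), whereas iron bound to transferrin enters from the blood side through the transferrin receptor, Tfrc. Iron not in use is stored in ferritin, a shell of heavy (Fth1) and light (Ftl1) chains, or leaves through ferroportin (Slc40a1). Hephaestin (Heph) oxidises the iron as it is exported. Iron regulatory proteins, of which Ireb2 encodes IRP2, bind hairpins called iron-responsive elements (IREs) in low iron. There they block translation of ferritin and ferroportin messages and stabilise the Tfrc message.

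These hairpins are shown because they join storage, export and uptake genes under the same regulator and set apart what a message count can record: binding upstream of the coding region acts on translation, binding downstream acts on message level. Transcripts of GENCODE M21 (build GRCm38) were searched on their own strand for the motif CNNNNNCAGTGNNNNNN, in which the 5 bases on either side of the loop can pair, G with T included. The capitals mark the bulged C and the 6-base loop. The matches in the 5′ untranslated regions of Fth1 (chr19:9982732-9982760, plus strand), Ftl1 (chr7:45459779-45459807, minus strand) and Slc40a1 (chr1:45925465-45925493, minus strand) were:
Fth1: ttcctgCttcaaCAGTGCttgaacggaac
Ftl1: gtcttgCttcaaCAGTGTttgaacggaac
Slc40a1: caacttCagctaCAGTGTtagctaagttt
Tfrc held 4 matches, all in its 3′ untranslated region on the plus strand, at chr16:32631219-32631247, chr16:32631598-32631626, chr16:32631663-32631691 and chr16:32631710-32631738, in this order:
Tfrc site 1: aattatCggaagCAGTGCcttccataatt
Tfrc site 2: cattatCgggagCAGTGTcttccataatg
Tfrc site 3: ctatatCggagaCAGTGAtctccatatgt
Tfrc site 4: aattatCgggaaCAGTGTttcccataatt
The Fth1 site lay in 3 of 3 searched transcripts and the Slc40a1 site in 1 of 1. The Ftl1 site and each Tfrc site lay in 1 of 2. The motif was found in the 5′ region of 28 of 19982 genes (0.14%) and in the 3′ region of 127 of 20755 genes (0.612%). The searched transcripts of Slc11a2, Cybrd1, Heph and Ireb2 held no match to this motif. The motif asks for 5 unbroken pairs, so a hairpin with an extra unpaired base in its stem would be missed. A gene without a match may therefore still hold an IRE. A match is a description of sequence and no measure of binding.

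The libraries were 3′ tag libraries (SC3-seq) made from 1 ng of RNA per sample, so a gene's count does not scale with its length and levels are not compared between genes. Levels are CPM, counts scaled to library size, after TMM scaling over all 67 samples, 1 per animal and population. Total counts per sample were 2.18 to 5.59 M for ISCs, 2.48 to 7.57 M for progenitors and 2.82 to 11.8 M for Paneth cells. Mitochondrially encoded transcripts took 31.4 to 73.4% of Paneth counts, 3.60 to 9.69% of ISC counts and 1.58 to 7.05% of progenitor counts. In Paneth cells their mean share was 61.6 ± 6.74% (SD, n = 12) in young and 51.6 ± 10.9% (n = 12) in aged mice. With these transcripts left out, all 92 results on the 8 genes kept their sign and call. Marker genes were summed to check the gates. ISC markers summed to 6871 to 12694 CPM in ISCs against 702 to 1848 in progenitors and 1613 to 5440 in Paneth cells, and Paneth markers to at least 98826 CPM in every Paneth sample and at most 2140 elsewhere. The Paneth gate also held transcripts of other cells. Enterocyte markers summed to 1027 to 4679 CPM there (620 to 2071 in progenitors, 164 to 248 in ISCs), enteroendocrine markers to 158 to 3828 (78.8 to 1011 in progenitors, at most 38.3 in ISCs) and tuft cell markers to 210 to 1636 (at most 21.4 in the other populations). Goblet markers were highest in progenitors, at 8503 to 33347 CPM. Immune markers summed to 24.6 to 281 CPM in Paneth cells and at most 10.5 elsewhere, except 284 in ISC aged female replicate 2. Leaving out that sample changed no call on the 8 genes. In such sorted bulk samples fewer cells of a type and less RNA per cell cannot be told apart, and the part of these other cells in the results below was not tested.

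**Figure D1:**
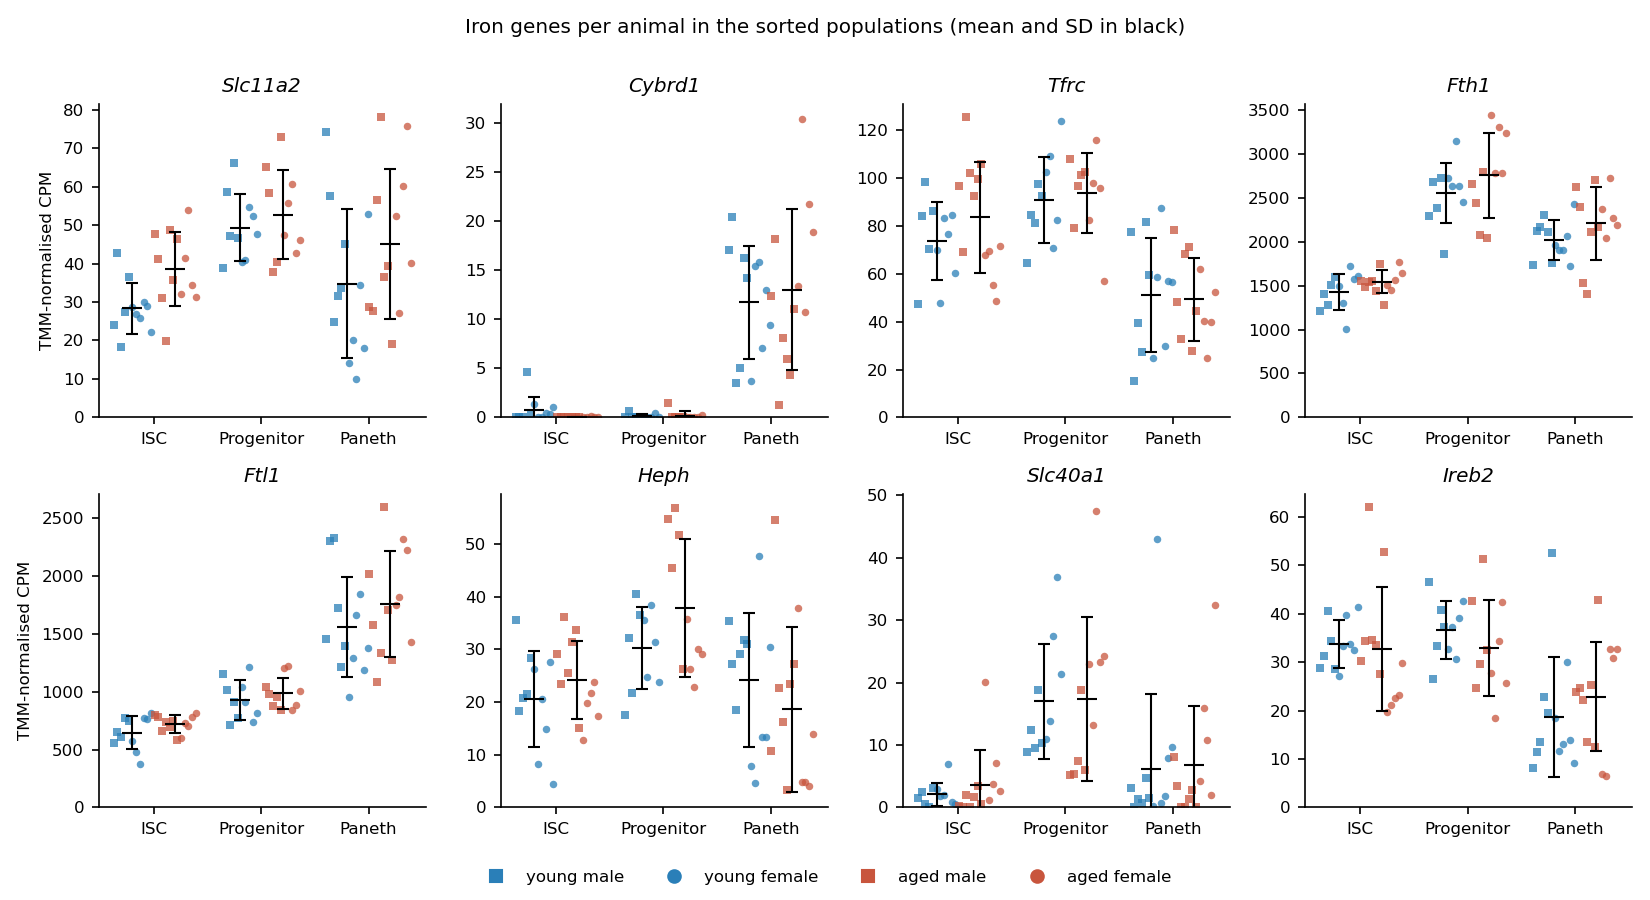
TMM-normalised CPM (vertical axes, linear, from 0) of the 8 iron genes in every animal, by sorted population and age. Squares are males and circles females, black bars give the mean and SD (cut off at 0). Fth1 was highest in progenitors, Ftl1 and Cybrd1 in Paneth cells and Slc40a1 in progenitors.

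How did the populations differ? Between ISCs and progenitors of young mice, 5 of the 8 genes passed edgeR's quasi-likelihood test (Benjamini-Hochberg adjusted p under 0.05), 4 higher and 1 lower in progenitors, where 24.3% of all tested genes passed (13.1% higher and 11.2% lower). The count was 5 of 8 between Paneth cells and ISCs (3 higher and 2 lower in Paneth cells, beside 30.4% of all genes, 17.6% higher and 12.8% lower) and 6 of 8 between Paneth cells and progenitors (2 higher and 4 lower, beside 27.4% of all genes, 16% higher and 11.5% lower). In aged mice 3 of 8 passed between progenitors and ISCs, all higher (24.4% of all genes, 14% higher and 10.5% lower). Between aged Paneth cells and ISCs 3 were higher and 1 lower (28.6% of all genes, 16.9% higher and 11.7% lower), and against progenitors 2 were higher and 3 lower (24.1%, 13.3% higher and 10.7% lower). The median log2 difference of the 8 genes between young progenitors and ISCs was 0.51, beside -0.06 over all genes. It was 0.39 beside 0.00 between young Paneth cells and ISCs and -0.41 beside 0.05 between young Paneth cells and progenitors. In aged mice these medians were 0.56 beside -0.03, 0.39 beside -0.01 and -0.41 beside 0.02. The 3 comparisons of an age share samples, and the samples of a population carry separate animal names. Some animals gave more than 1 population. With the animal as a block the number of these genes that passed fell from 5 to 3 between young ISCs and progenitors, while that of all genes fell from 3006 to 1617.

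Scaling bears on every comparison with Paneth cells. Without scaling beyond library totals, the median log2 difference of all genes between Paneth cells and ISCs was -1.86 in young and -1.61 in aged mice, and that against progenitors was -1.71 and -1.45. The share of called genes that were higher in Paneth cells then dropped from 57.9% to 3.59% and from 58.9% to 4.80% against ISCs, and from 58.1% to 2.39% and from 55.4% to 3.34% against progenitors. For progenitors against ISCs the shift was -0.16 in young and -0.18 in aged mice, and in aged mice the share higher moved from 57.1% to 42.6%. Differences with Paneth cells are therefore relative to the bulk of genes in the sample. For the set of iron genes followed here, the values without scaling are given below where the sign turns. They are not given for the other genes of iron metabolism set beside that set.

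Ferritin heavy chain, which oxidises iron as it enters the ferritin shell, was highest in progenitors at both ages. Fth1 (chr19:9980598-9985098, plus strand) had a lowest, median and highest level of 1007, 1497 and 1719 CPM in young ISCs. It stood at 1857, 2638 and 3142 CPM in young progenitors and 1721, 2010 and 2434 CPM in young Paneth cells. Every young progenitor and every young Paneth sample lay above every young ISC sample. Fth1 was 1.75-fold higher in progenitors than in ISCs (log2 0.81 ± 0.09, estimate ± SE, edgeR adjusted p = 2.8e-09) and 1.43-fold higher in Paneth cells than in ISCs (0.52 ± 0.09, adjusted p = 1.2e-05). In Paneth cells it was lower than in progenitors (-0.29 ± 0.09, adjusted p = 0.015). In aged mice the same order held at 1279, 1546 and 1768 CPM in ISCs, 1406, 2229 and 2721 in Paneth cells and 2037, 2784 and 3445 in progenitors. The progenitors again lay wholly above the ISCs (0.82 ± 0.09, edgeR adjusted p = 2.1e-09), while 10 of 12 Paneth samples lay above every ISC sample (0.53 ± 0.09, adjusted p = 8e-06). The step between aged Paneth cells and progenitors (-0.29 ± 0.09, adjusted p = 0.020) was lost without Progenitor aged female replicate 5 (-0.25, adjusted p = 0.060) and with DESeq2 (-0.21, adjusted p = 0.12). On library totals Fth1 was lower in Paneth cells than in ISCs, by log2 -1.36 in young and -1.09 in aged mice, which is 0.50 and 0.53 above the median of all genes on that scale.

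Ferritin light chain, which helps the iron core form, rose in a different order, from ISCs through progenitors to Paneth cells. Ftl1 (chr7:45457944-45459884, minus strand) had a lowest, median and highest level of 372, 651 and 816 CPM in young ISCs, 717, 913 and 1212 in young progenitors and 952, 1426 and 2332 in young Paneth cells. Paneth cells did not overlap with ISCs, and 10 of 12 lay above every progenitor sample. The difference from ISCs was 1.41-fold in progenitors (log2 0.49 ± 0.14, edgeR adjusted p = 0.0053) and 2.43-fold in Paneth cells (1.28 ± 0.13, adjusted p = 1.1e-10), and Paneth cells exceeded progenitors by 0.79 ± 0.14 (adjusted p = 1.4e-05). In aged mice levels were 583, 733 and 817 CPM in ISCs, 841, 970 and 1220 in progenitors and 1084, 1731 and 2600 in Paneth cells. ISCs lay wholly below both other populations. The corresponding differences were 0.45 ± 0.11 (edgeR adjusted p = 0.0017), 1.31 ± 0.11 (adjusted p = 1.4e-13) and 0.86 ± 0.11 (adjusted p = 6e-08). On library totals Ftl1 in Paneth cells fell below ISCs (log2 -0.59 in young and -0.33 in aged mice) and below progenitors (-0.98 and -0.64). Relative to the median of all genes on that scale it remained higher, by 1.28 and 1.28 against ISCs and by 0.74 and 0.81 against progenitors.

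The balance of the ferritin chains can be read within a library and does not depend on scaling between libraries. The log2 ratio of Fth1 to Ftl1 counts was 1.17 ± 0.18 (SD, n = 11) in young ISCs, 1.47 ± 0.24 (n = 10) in young progenitors and 0.41 ± 0.36 (n = 12) in young Paneth cells. In aged mice it was 1.1 ± 0.13 (n = 12), 1.47 ± 0.25 (n = 10) and 0.35 ± 0.31 (n = 12). Paneth samples thus held the fewest heavy-chain counts per light-chain count, with 3 of them below 0. The log2 ratio of Tfrc to Fth1, uptake set against storage, was -4.30 ± 0.39 in young ISCs, -4.82 ± 0.36 in young progenitors and -5.46 ± 0.86 in young Paneth cells. In aged mice it was -4.25 ± 0.47, -4.88 ± 0.44 and -5.54 ± 0.67. The ranges overlapped between populations, except that the Fth1 to Ftl1 ratio of every aged Paneth sample (at most 0.76) lay below every aged ISC sample (at least 0.92) and every aged progenitor sample. These ratios are descriptions, since they restate the gene levels above, and adding 1 count in place of 0.5 left the order of the means as it was.

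**Figure D2:**
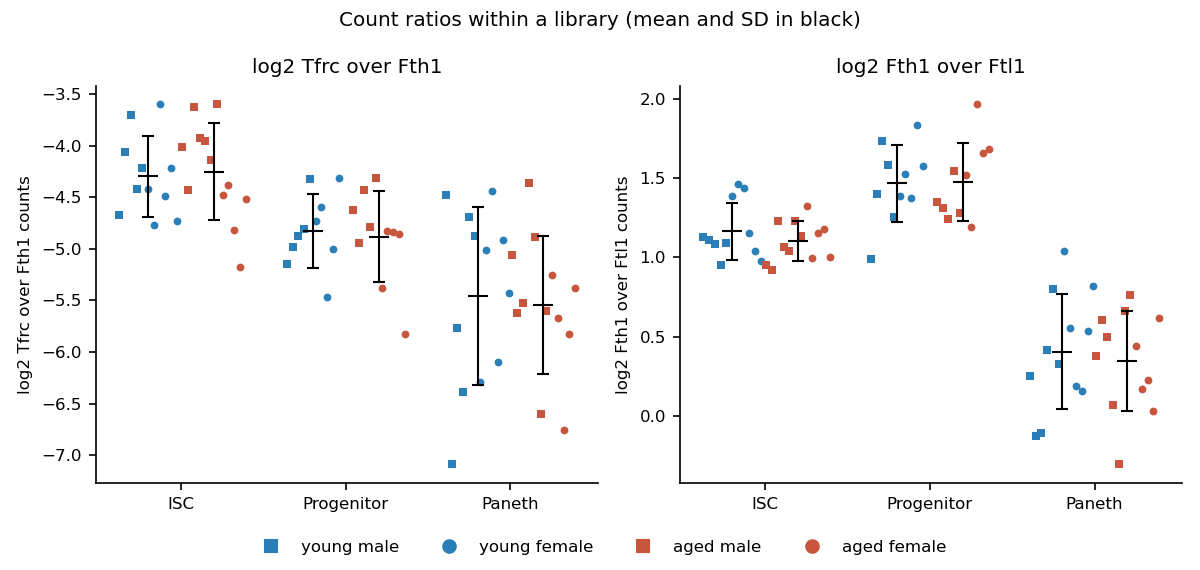
Log2 ratios of counts within each animal's sample (vertical axes), Tfrc over Fth1 on the left and Fth1 over Ftl1 on the right, by population. Blue is young, red is aged, squares are males, circles are females, and black bars are the mean and SD. Mean Tfrc over Fth1 was highest in ISCs, and Fth1 over Ftl1 was lowest in Paneth cells.

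Tfrc was lowest in Paneth cells. Tfrc (chr16:32608920-32632794, plus strand), whose product takes up transferrin-bound iron by endocytosis, had a lowest, median and highest level of 47.6, 76.4 and 98.3 CPM in young ISCs, 64.3, 88.6 and 123.7 in young progenitors and 15.3, 56.7 and 87.3 in young Paneth cells. No Paneth sample exceeded the progenitor median, and 9 of 12 lay below every progenitor sample. Paneth cells were 1.71-fold lower than progenitors (log2 -0.77 ± 0.20, edgeR adjusted p = 0.0028). In aged mice the levels were 48.7, 82.0 and 125 CPM in ISCs, 57.0, 97.2 and 115.7 in progenitors and 24.9, 46.5 and 78.3 in Paneth cells. There Paneth cells were lower than ISCs (-0.69 ± 0.16, edgeR adjusted p = 0.00068) and than progenitors (-0.94 ± 0.17, adjusted p = 2e-05). ISCs and progenitors did not differ beyond their spread at either age (0.27 ± 0.20 and 0.25 ± 0.16, edgeR adjusted p = 0.38 and 0.29).

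The lower Tfrc of young Paneth cells against young ISCs was close to the threshold (log2 -0.51 ± 0.20, edgeR adjusted p = 0.045). It was lost in 13 of 33 fits that each left out 1 animal, at an adjusted p of 0.051 to 0.086. The animals were ISC young female replicates 1, 3, 4 and 5, ISC young male replicates 2, 3 and 5, Paneth young female replicates 1 and 4, Paneth young male replicates 2, 3 and 4, and Progenitor young male replicate 3, with values between -0.51 and -0.41. With the animal as a block it was -0.37 (adjusted p = 0.21), and with the first technical library of each Paneth animal in place of the sum -0.14 (adjusted p = 0.72). That alternative also left the young difference from progenitors short of the threshold (-0.40, adjusted p = 0.24).

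Slc11a2 (chr15:100387898-100425072, minus strand), the divalent metal importer, was higher in progenitors than in ISCs of young mice. The lowest, median and highest levels were 18.3, 27.5 and 42.7 CPM in ISCs and 38.8, 47.4 and 66.0 in progenitors, and 7 of 10 progenitor samples lay above every ISC sample. The difference was 1.70-fold (log2 0.76 ± 0.22, edgeR adjusted p = 0.0068) and did not pass with the animal as a block (0.67, adjusted p = 0.11) or with the first Paneth libraries in the shared fit (0.76, adjusted p = 0.076). In aged mice levels were 19.9, 38.4 and 54.0 CPM in ISCs and 37.8, 51.6 and 72.9 in progenitors (0.44 ± 0.20, adjusted p = 0.11). Paneth samples were spread most widely, from 10.1 to 74.2 CPM (median 32.7) in young and 19.0 to 78.1 (median 39.6) in aged mice. Under TMM they passed the threshold in edgeR against neither population at either age. The young difference from progenitors (-0.50 ± 0.21, edgeR adjusted p = 0.076) passed without Paneth young female replicate 6 (-0.69, adjusted p = 0.0084) or Paneth young male replicate 1 (-0.60, adjusted p = 0.030). It also passed with limma-voom (-0.57, adjusted p = 0.030). On library totals Slc11a2 in Paneth cells passed as lower throughout (edgeR adjusted p from 1.1e-11 to 2e-07). It was -1.59 and -1.37 against young and aged ISCs, where the sign turned, and -2.25 and -1.68 against progenitors. Relative to the median of all genes on that scale these were 0.27, 0.24, -0.54 and -0.23. The antisense gene Gm5475 overlaps Slc11a2 and had 289 counts against 15100. No source used here says whether counting used strand.

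Cybrd1 (chr2:71117923-71142926, plus strand), the duodenal ferric reductase, was found almost wholly in the Paneth gate. All 24 Paneth samples held counts, with a lowest, median and highest level of 3.54, 13.6 and 20.4 CPM in young and 1.28, 11.7 and 30.4 CPM in aged mice. Of the progenitor samples 8 of 10 young and 8 of 10 aged were at 0, and of the ISC samples 5 of 11 young and 11 of 12 aged. Summed over animals there were 439 counts in young and 615 in aged Paneth cells, against 40 and 1 in ISCs and 6 and 18 in progenitors. The ratio of pooled CPM, on library totals, was 36.7 (95% counting interval 16.7 to 101) between young Paneth cells and progenitors and 5.80 (4.19 to 8.23) between young Paneth cells and ISCs. In aged mice it was 19.3 (12.1 to 32.8) against progenitors and 343 (61.3 to 13553) against the single ISC count. These intervals come from counts pooled over animals, so they cover counting error only and leave out the spread between animals. ISC young male replicate 4 alone held 20 of the 40 young ISC counts. The reads carry no stated molecular identifiers, so even the counting error may be larger than the intervals show.

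In the fits, Cybrd1 was higher in young Paneth cells than in ISCs (log2 4.06 ± 0.74, edgeR adjusted p = 2.7e-05) and than in progenitors (6.59 ± 0.91, adjusted p = 2.2e-07). In aged mice it was 6.29 ± 0.78 above progenitors (edgeR adjusted p = 5.4e-08) and 8.58 ± 0.88 above ISCs (adjusted p = 3e-10), where the size depends on how 1 count is modelled. The sizes also moved with single samples: 6.00 against young ISCs without ISC young male replicate 4, 7.74 and 7.76 against young progenitors without Progenitor young female replicate 4 or young male replicate 2, 9.19 against aged ISCs without ISC aged female replicate 3, and 7.23 and 8.27 against aged progenitors without Progenitor aged female replicate 5 or aged male replicate 1. All of these still passed. Enterocytes are known to express Cybrd1, and their markers summed to 1027 to 4679 CPM in the same gate. In progenitors, where most samples held no Cybrd1 count, enterocyte markers summed to 620 to 2071 CPM. The part of enterocytes, or of the other cells found in the Paneth gate, in the Cybrd1 level was not tested.

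Cybrd1 was also called lower in young progenitors than in young ISCs (log2 -2.54 ± 0.89, edgeR adjusted p = 0.030), a difference that rested on ISC young male replicate 4, which held 20 of the 40 ISC counts. Without it the value was -0.59 (adjusted p = 0.83). The call was also lost without ISC young female replicate 1 (-2.23), Progenitor young female replicate 5 (-2.37) or Progenitor young male replicates 3, 4 or 5 (-2.38, -2.36 and -2.38), with adjusted p between 0.054 and 0.072. Without Progenitor young female replicate 4 or young male replicate 2, which held the 6 progenitor counts, it grew to -3.68 and -3.71. It was -2.70 with the animal as a block (adjusted p = 0.16) and -1.01 with limma-voom (adjusted p = 0.36). In aged mice the sign was the other way and did not pass (2.28 ± 0.92, edgeR adjusted p = 0.066). Progenitor aged male replicate 1 held 16 of the 18 aged progenitor counts, and without it the value was 0.28. It was 1.35 without Progenitor aged female replicate 5, and passed at 2.91 without ISC aged female replicate 3 (adjusted p = 0.044).

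The ferroportin message was highest in progenitors. Slc40a1 (chr1:45908068-45926523, minus strand), which encodes ferroportin, the cell's iron exporter, had a lowest, median and highest level of 0, 1.86 and 6.91 CPM in young ISCs, 8.84, 13.1 and 37.0 in young progenitors and 0, 1.70 and 42.9 in young Paneth cells. Young progenitors lay wholly above young ISCs, and 10 of 12 young Paneth samples lay below every progenitor sample. Progenitors were 7.97-fold above ISCs (log2 2.99 ± 0.57, edgeR adjusted p = 6.4e-05), and Paneth cells were 3.37-fold below progenitors (log2 -1.75 ± 0.54, adjusted p = 0.012). That gap widened to -2.41 without Paneth young female replicate 2, the sample at 42.9 CPM. In aged mice the levels were 0, 1.87 and 20.1 CPM in ISCs, 5.19, 16.0 and 47.5 in progenitors and 0, 3.17 and 32.4 in Paneth cells. The aged progenitors all lay above the ISC median, 5.27-fold higher in the fit (2.40 ± 0.61, edgeR adjusted p = 0.0027), and with the animal as a block the same size did not pass (2.43, adjusted p = 0.075).

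Slc40a1 in Paneth cells against ISCs did not pass the adjusted threshold (log2 1.24 ± 0.55 in young and 0.98 ± 0.59 in aged mice, edgeR adjusted p = 0.086 and 0.23). The young difference passed without ISC young female replicate 4 (1.53, adjusted p = 0.036) or Paneth young female replicate 1 (1.38, adjusted p = 0.039). It fell to 0.58 (adjusted p = 0.42) without Paneth young female replicate 2, the sample at 42.9 CPM, and on library totals both signs turned (-0.66 and -0.72). The aged Paneth value against progenitors (-1.42 ± 0.60, edgeR adjusted p = 0.079) passed without Paneth aged female replicate 5 (-1.76, adjusted p = 0.035) or Paneth aged male replicate 1 (-1.82, adjusted p = 0.021). It was called at a larger size by limma-voom (-2.25, adjusted p = 0.0014) and on library totals (-3.00, edgeR adjusted p = 1.9e-05). Of the Paneth samples 3 of 12 aged and 1 of 12 young held no Slc40a1 count.

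Heph (chrX:96455359-96574485, plus strand), the membrane ferroxidase that works with ferroportin, had a lowest, median and highest level of 4.46, 20.8 and 35.6 CPM in young ISCs, 17.5, 31.8 and 40.4 in young progenitors and 4.63, 28.2 and 47.6 in young Paneth cells. The ranges overlapped and no young comparison passed in edgeR under TMM. By contrast limma-voom called progenitors above ISCs in young (0.62, adjusted p = 0.038) and aged mice (0.67, adjusted p = 0.019, where edgeR gave 0.67 ± 0.30, adjusted p = 0.10). In aged mice it was 12.7, 23.6 and 36.1 CPM in ISCs, 22.8, 32.9 and 56.8 in progenitors and 3.33, 15.0 and 54.6 in Paneth cells. Aged Paneth cells were 2.08-fold lower than progenitors (log2 -1.06 ± 0.31, edgeR adjusted p = 0.0087), with 8 of 12 below every progenitor sample. With the first technical library of each animal this difference was -0.91 (adjusted p = 0.14). Under TMM aged Paneth cells against ISCs did not pass (-0.39 ± 0.30, edgeR adjusted p = 0.35) except without Paneth aged female replicate 1 (-0.85, adjusted p = 0.018). On library totals Heph was lower in Paneth cells than in ISCs, by log2 -1.66 in young and -1.89 in aged mice (edgeR adjusted p = 1.8e-06 in both). Relative to the median of all genes on that scale these were 0.21 and -0.27. Against young progenitors it was -2.08 on library totals (adjusted p = 3.1e-08).

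Ireb2 (chr9:54863789-54912530, plus strand), which encodes the IRE-binding protein IRP2, did not differ beyond its spread between ISCs and progenitors. The lowest, median and highest levels were 27.1, 33.4 and 41.4 CPM in young ISCs and 26.4, 37.2 and 46.6 in young progenitors (log2 0.09 ± 0.23, 95% interval -0.37 to 0.55, edgeR adjusted p = 0.83). Young Paneth cells had 8.21, 13.7 and 52.5 CPM, and 10 of 12 lay below every sample of either other population. They were 1.78-fold lower than ISCs (-0.83 ± 0.22, edgeR adjusted p = 0.0035) and 1.90-fold lower than progenitors (-0.93 ± 0.23, adjusted p = 0.0017). In aged mice Ireb2 was 19.7, 30.0 and 61.9 CPM in ISCs, 18.4, 31.1 and 51.3 in progenitors and 6.45, 24.2 and 42.9 in Paneth cells. The aged Paneth differences from ISCs and progenitors did not pass under TMM (-0.41 ± 0.25 and -0.53 ± 0.25, edgeR adjusted p = 0.21 and 0.13). The first did with the animal as a block (-0.77, adjusted p = 0.043), and both did with limma-voom (-0.72 and -0.87, adjusted p = 0.033 and 0.012). Both also passed on library totals (-2.08 and -2.05, edgeR adjusted p = 4.5e-10 and 1.3e-09), which is -0.46 and -0.60 relative to the median of all genes on that scale. Whether the Paneth difference changes with age was tested directly and did not pass (0.43 ± 0.33 against ISCs and 0.44 ± 0.34 against progenitors, edgeR adjusted p = 0.79 and 0.87).

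**Figure D3:**
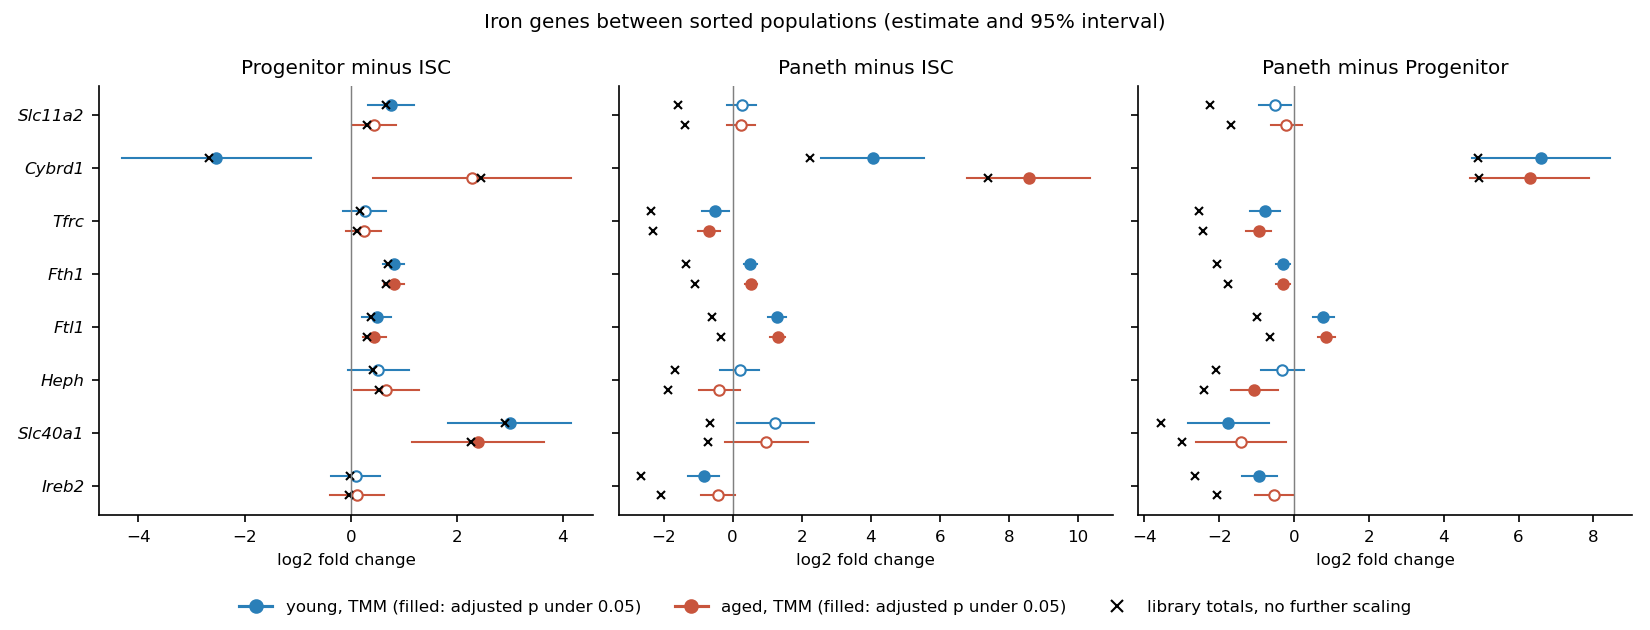
Log2 fold changes (horizontal axes) of the 8 genes between populations, with 95% intervals, in young (blue) and aged (red) mice. Filled points have an edgeR adjusted p under 0.05 and crosses give the estimate on library totals without TMM scaling. Ftl1 rose in both comparisons with Paneth cells under TMM and fell in both on library totals.

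Did iron genes change with age within a population? None of the 8 was called. In ISCs and progenitors 7 could be tested (Cybrd1 was too low) and in Paneth cells all 8, where 0.351%, 0.728% and 0.0686% of all genes were called by edgeR. None of the alternatives run, DESeq2 and limma-voom among them, called any. At an unadjusted p under 0.05 edgeR had 1 of 7 in ISCs, 0 of 7 in progenitors and 0 of 8 in Paneth cells, beside 8.9%, 9.06% and 6.83% of all genes. The median log2 difference of the tested members was 0.13 (0.00 over all genes) for ISCs, 0.07 (0.00) for progenitors and 0.15 (0.01) for Paneth cells.

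The gene with the unadjusted p in ISCs was Slc11a2. The median level was 27.5 CPM when young and 38.4 CPM when aged, 11 of 12 aged samples lay above the young median, and the ranges overlapped (log2 0.42 ± 0.16, edgeR adjusted p = 0.38). It was of the same size in Paneth cells (0.42 ± 0.28, adjusted p = 0.84) and small in progenitors (0.08 ± 0.13, adjusted p = 0.92). The ferritin genes were the most precisely measured. Fth1 changed by 0.10 ± 0.08 in ISCs (95% interval -0.07 to 0.26), 0.09 ± 0.08 in progenitors (-0.08 to 0.26) and 0.12 ± 0.11 in Paneth cells (-0.10 to 0.34). The Ftl1 intervals were -0.08 to 0.34, -0.13 to 0.28 and -0.11 to 0.45. Tfrc had intervals of -0.18 to 0.32 in ISCs, -0.20 to 0.27 in progenitors and -0.63 to 0.41 in Paneth cells. For the low genes the data allow larger changes: the Slc40a1 interval ran from -0.82 to 1.78 in ISCs and from -1.27 to 1.76 in Paneth cells (estimate 0.24, or 0.92 without Paneth young female replicate 2), and the Heph interval from -1.29 to 0.35 in Paneth cells.

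Cybrd1 in ISCs could be described by counts only. Of 11 young ISC samples 6 held between 1 and 20 counts, and of 12 aged samples 1 held a single count. The test of whether the age effect of Cybrd1 differs between Paneth cells and ISCs, in the fit of all 67 samples, gave 4.46 ± 1.07 (edgeR adjusted p = 0.10), and ISC young male replicate 4 held 20 of the 41 ISC counts in it. No member was called for a difference in age effect between any pair of populations, where 0.0376% (Paneth cells and ISCs), 0% (Paneth cells and progenitors) and 0.00753% (progenitors and ISCs) of all genes were. At an unadjusted p under 0.05 there were 1, 0 and 1 of 8, Cybrd1 in both cases, beside 8.91%, 7.27% and 2.19% of all genes. None was called within males or within females of any population (0.209% and 0.0753% of all genes in ISCs, 0.178% and 0.0847% in progenitors, 0.0343% and 0.0171% in Paneth cells). At an unadjusted p under 0.05 there were 0 and 2 of 7 in ISCs, 1 and 0 of 7 in progenitors and 0 and 2 of 8 in Paneth cells, beside 5.2% to 9.01% of all genes. Of the tests of a difference in age effect between the sexes, 2 of 7 in ISCs (Tfrc and Ireb2), 1 of 7 in progenitors (Heph) and 1 of 8 in Paneth cells (Slc11a2) had an unadjusted p under 0.05 (7.01%, 6.19% and 5.32% of all genes), and none passed the adjustment (0% of all genes did in each).

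**Figure D4:**
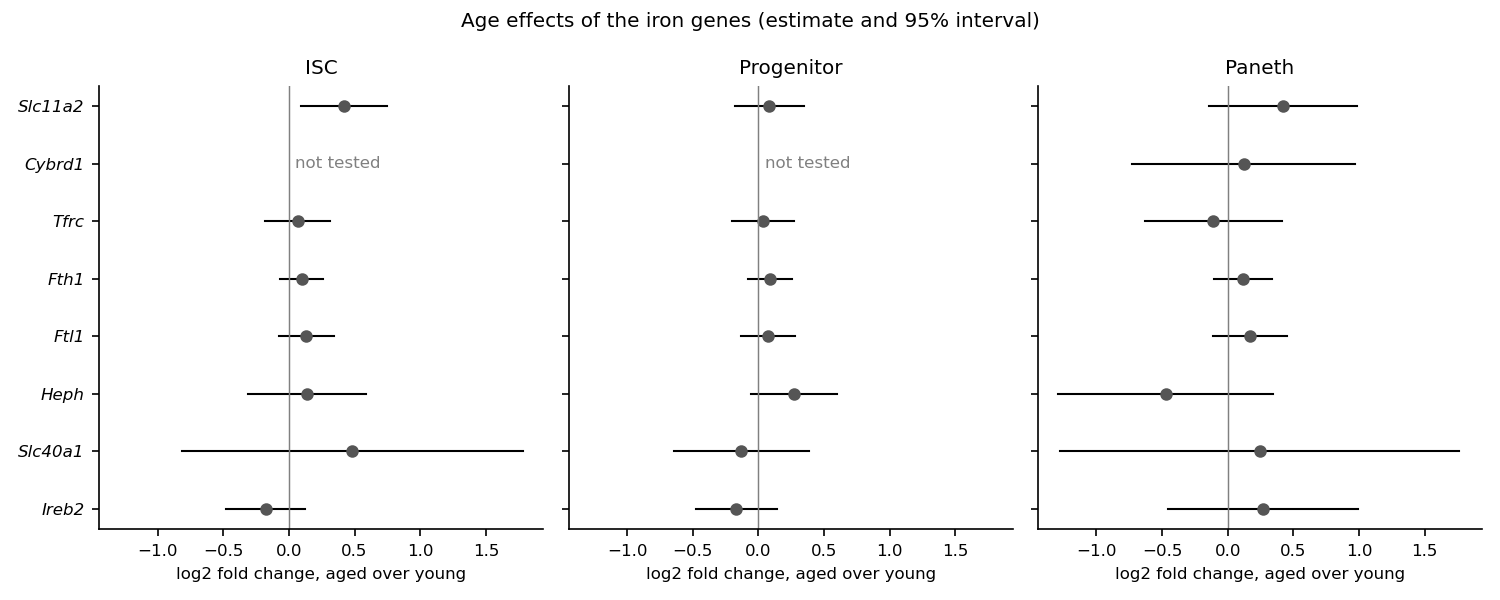
Log2 fold changes of aged over young mice (horizontal axes) with 95% intervals for each gene in the 3 populations. Every interval but that of Slc11a2 in ISCs covers 0, and Cybrd1 was too low to test in ISCs and progenitors.

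In the tests of sex 1 call was made, for Slc40a1 in progenitors (1 of 7 members), where 0.135% of all genes were called (0.0931% higher in females). Ferroportin message was 8.84, 9.47, 10.2, 12.4 and 18.7 CPM in the 5 young males and 10.98, 13.9, 21.3, 27.4 and 37.0 CPM in the 5 young females. In aged mice it was 5.19, 5.34, 5.98, 7.38 and 18.9 CPM in males and 13.1, 23.0, 23.2, 24.2 and 47.5 CPM in females. All 10 females lay above the male median and 7 of 10 above every male. The female level was 2.40-fold higher (log2 1.26 ± 0.26, edgeR adjusted p = 0.022).

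The size of this difference held up better than its call. It was lost in 9 of 20 fits that each left out 1 animal, with values of 1.1 to 1.27 and adjusted p of 0.050 to 0.071: Progenitor aged female replicate 3, aged male replicates 1, 3 and 5, young female replicate 3 and young male replicates 1, 2, 3 and 5. Without the animals of 26 and 27 months it was 1.00 (adjusted p = 0.85). In progenitors these were aged male replicates 1, 2 and 3 (5.19, 5.34 and 7.38 CPM) and no female. The other aged males, of 23 and 24 months, held 18.9 and 5.98 CPM, and all aged females were 23 months old. Sex and months of age are therefore not fully apart among aged progenitor samples. Higher Slc40a1 in females was also the direction in ISCs (1.65 ± 0.64, edgeR adjusted p = 0.54) and Paneth cells (2.46 ± 0.77, adjusted p = 0.999), where no member passed (0.0836% and 0.0257% of all genes did). Tfrc, Heph and Ireb2 in ISCs went the other way, lower in females (log2 -0.39, -0.54 and -0.34, none passing). At an unadjusted p under 0.05 there were 4 of 7 in ISCs (Tfrc, Heph, Slc40a1 and Ireb2) and 1 of 8 in Paneth cells (Slc40a1), beside 7.33% and 4.63% of all genes at that threshold. In progenitors there were 2 of 7, beside 7.92% of all genes, the other being Fth1 (0.29 ± 0.08, edgeR adjusted p = 0.26). Without Paneth young female replicate 2 the Paneth value of Slc40a1 was 1.79. Among the markers in progenitors, summed ISC markers were 702 to 1419 CPM in females and 1193 to 1848 in males. Enterocyte markers had medians of 1093 and 1090 CPM and immune markers of 4.81 and 4.15 CPM in females and males. The immune sums ran from 2.78 to 7.01 CPM in females and from 1.3 to 10.5 CPM in males. Of these 14 immune genes 7 were at 0 in all female and 4 in all male progenitor samples, Adgre1 and Cd163 in either sex, while Cd68, Lyz2 and Csf1r had counts in either. The part of ISC or immune transcripts in the sex difference was not tested.

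**Figure D5:**
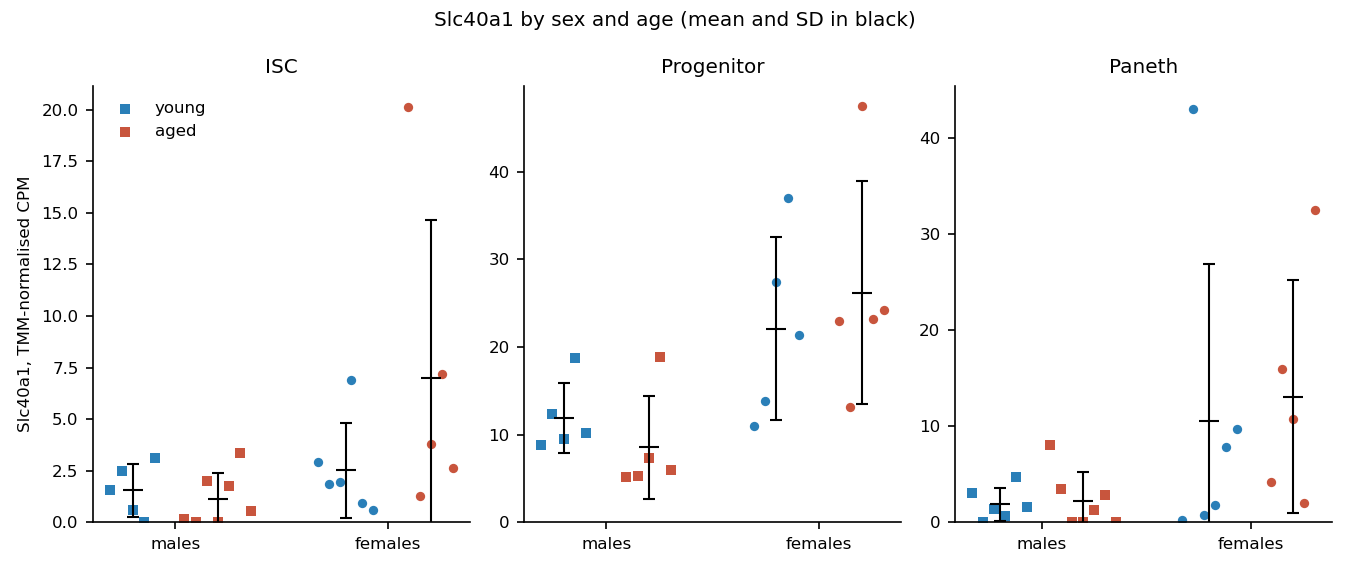
Slc40a1 in TMM-normalised CPM (vertical axes, linear, from 0) by sex, age and population. Points are animals and black bars the mean and SD (cut off at 0). In progenitors 7 of 10 females lay above every male, and the ranges overlap in all 3 populations.

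How did other genes of iron metabolism behave? A further 67 genes in 8 lists, from haem handling to iron-sulfur cluster assembly, were set beside the 8, of which 50 to 54 could be tested. None was called for age in any population, with 6 of 52, 2 of 51 and 3 of 50 at an unadjusted edgeR p under 0.05 in ISCs, progenitors and Paneth cells, beside the shares of all genes given above. Between young progenitors and ISCs 8 were higher and 4 lower of 52 (23.1%, close to the 24.3% of all genes), and between young Paneth cells and ISCs 8 were higher and 7 lower (28.8%, beside 30.4%). In aged mice these counts were 8 and 1 (17.3%, beside 24.4%) and 8 and 5 (25%, beside 28.6%). Against progenitors, 5 were higher and 12 lower in young Paneth cells (32.7%, beside 27.4%) and 7 higher and 8 lower in aged ones (28.8%, beside 24.1%). The differences of these further genes with Paneth cells, here and below, are relative to the bulk of genes. An increase smaller than the shift of all genes given above could turn in sign on library totals, which was not tested for these genes.

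Among haem genes, progenitors held more Abcg2, a haem and porphyrin exporter, and Blvrb, a biliverdin reductase, than ISCs (log2 1.09 ± 0.21 and 0.97 ± 0.19 in young mice, edgeR adjusted p at most 0.00011). Both passed again in aged mice (1.07 ± 0.18 and 0.87 ± 0.17, edgeR adjusted p at most 6.5e-05). Paneth cells held more Slc46a1, a folate carrier that also moves haem, than ISCs at both ages (1.69 ± 0.43 and 1.88 ± 0.38, adjusted p = 0.0022 and 0.00012). Of the haem synthesis enzymes Ppox was higher in Paneth cells than in progenitors (1.05 ± 0.17 in young mice, edgeR adjusted p = 4.2e-06) and Alas1, which catalyses the committed step, lower (-0.87 ± 0.20, adjusted p = 0.0011). Haem import, breakdown and export had 2 of 7 tested genes higher and 0 lower between young progenitors and ISCs, and haem synthesis 2 of 8 higher and 1 lower, beside 13.1% higher and 11.2% lower of all genes.

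Pcbp1, a chaperone that hands iron to ferritin, ran parallel to Fth1 in the step from ISCs to progenitors (log2 0.39 ± 0.10 in young and 0.36 ± 0.10 in aged mice, edgeR adjusted p = 0.0024 and 0.0093). In Paneth cells Pcbp1 was lower than in ISCs (-0.31 ± 0.10 in young mice, adjusted p = 0.011), where Fth1 was higher. Its list had 1 gene higher and 1 lower of 5 tested between young progenitors and ISCs (13.1% and 11.2% of all genes) and again between young Paneth cells and ISCs (17.6% and 12.8%). Aco1, which encodes the other iron regulatory protein, IRP1, was lower in Paneth cells than in progenitors at both ages (-0.62 ± 0.15 and -0.83 ± 0.15, edgeR adjusted p = 0.0016 and 3.6e-05). Of the 8 tested genes of iron sensing, 1 was higher and 4 lower between young Paneth cells and progenitors (16% and 11.5% of all genes), the hypoxia factor Hif1a among them (-0.89 ± 0.24, adjusted p = 0.0046).

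The transferrin gene itself, Trf, was lower in young progenitors than in ISCs (log2 -2.55 ± 0.61, edgeR adjusted p = 0.0013) and in young Paneth cells than in ISCs (-2.14 ± 0.58, adjusted p = 0.0036), 1 of 7 and 2 of 7 tested import genes being lower (11.2% and 12.8% of all genes) and none higher. In aged mice Trf was again lower in progenitors than in ISCs (-2.90 ± 0.86, edgeR adjusted p = 0.0099). Aged Paneth cells did not pass against ISCs (-0.53 ± 0.74, adjusted p = 0.65) and were above progenitors (2.37 ± 0.85, adjusted p = 0.036). Iron-sulfur cluster assembly had 2 of 14 tested genes higher and 1 lower between young progenitors and ISCs, beside 13.1% and 11.2% of all genes. The scaffold Iscu was higher in young progenitors than in ISCs (1.36 ± 0.31, edgeR adjusted p = 0.00077) and in young Paneth cells than in ISCs (1.37 ± 0.31, adjusted p = 0.00047). Nfs1, the cysteine desulfurase, was lower in young Paneth cells than in ISCs (-0.78 ± 0.16, adjusted p = 0.00012). Of the ferroxidases and the hepcidin axis only 1 of 8 listed genes, Hfe, was measured well enough to test, and it was lower in young Paneth cells than in progenitors (-1.44 ± 0.52, edgeR adjusted p = 0.032). Of the 3 genes of iron-withholding defence, at most 2 could be tested and none was called in the 6 comparisons of populations.

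Which genes ran most alike across the 12 groups of population, age and sex? Likeness was the root-mean-square difference of centred log2 group means, searched over 9101 genes and given as a description. Fth1 was nearest to Gpr89 and Ogdh (0.092 and 0.094), Slc11a2 to Capn5 and Acadl (0.10 and 0.17), and Tfrc to Psma1 and Adtrp (both 0.12). Ftl1 was nearest to Sertad1 and Herpud1 (both 0.15), Ireb2 to Eif4e and Hif1a (0.14 and 0.15) and Heph to Slc35f2 and Pfdn1 (0.20 and 0.24). For Cybrd1 and Slc40a1 the nearest genes were Fzd9 and Rnase1 (0.38 and 0.44) and Gstp2 and Rbp7 (0.68 and 0.70). The group means of Cybrd1 and Slc40a1 also ranged most widely, over 5.20 and 4.35 log2. The difference can grow with that range, so its size does not rank closeness between genes. Genes with a mean below 5 CPM were not searched.

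The technical libraries of the Paneth cells, 2 or 3 per animal and 69 in all, show how far single values can be read. The highest over the lowest CPM within an animal had a median of 1.22 for Fth1 and 1.25 for Ftl1 over 24 animals. It was 2.45 for Tfrc, 2.66 for Ireb2, 3.30 for Cybrd1, 3.57 for Slc11a2 and 3.94 for Heph, over the animals with counts in every library. Slc40a1 was at 0 in 31 of 69 libraries, and in the 6 animals where it never was the ratio was 9.38. By this median the ferritin genes thus had the smallest ratio of the 8 and Slc40a1 the largest. The highest single ratio was 54.3, for Heph, beside 18.1 for Slc40a1. These medians rest on different sets of animals, 24 for the ferritin genes, 17 for Cybrd1 and Heph and 6 for Slc40a1. They also take in counting error, which is larger for genes of few counts and was not separated from other technical spread.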

How the data were processed

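Per the submitters' processing notes, reads were handled with cutadapt 3.0 and STAR 2.7.9a (mm10), then HTSeq 0.13.5 and DESeq2 1.30.1. For each of 112 libraries the authors supplied a count and a CPM value per gene. Neither annotation release nor strand setting is stated in these sources. Since recomputed CPM differed from the deposited CPM by at most 4.95e-10, only the deposited counts entered the tests. Paneth technical libraries were summed per animal. Genes were filtered by filterByExpr (minimum count 10), scaled by TMM and tested with edgeR 4.0.16 (quasi-likelihood F test, robust, R 4.3.3), adjusted over all tested genes. Age and sex effects were fitted within each population, populations were compared within each age, and differences of age effects came from a fit of all samples. The biological coefficient of variation was 0.433 (ISC), 0.333 (progenitor) and 0.706 (Paneth). The fits were tested on simulated counts drawn from a shared mean profile. Those had no shift in scaling between populations and no animals shared between them, so the simulation does not bear on either.

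The members and lists were chosen with earlier results of these data known. All members are named. Of the other iron genes up to 3 called genes per list and comparison, those of smallest adjusted p, could be named, together with the 2 genes most alike to each member. Where an animal gave several populations its samples are paired by their source (median correlation of deviations 0.084 for progenitors with ISCs, 0.063 for Paneth cells with ISCs, 0.068 for Paneth cells with progenitors), which is why a block by animal was run. Coordinates and transcripts are those of GENCODE M21 (GRCm38). Alternatives were size factors, unscaled totals, no filter, DESeq2 1.42.0, limma-voom (limma 3.58.1), mitochondrially encoded genes left out, blocks, first Paneth libraries, no animals of 26 or 27 months, and each animal left out.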

Additional observations from a re-analysis of the deposited data

Results flagged for a closer look

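A total of 119 sets of values were screened, each of them 1 gene or ratio in 1 of the 12 groups of population, age and sex. In 13 sets, from 12 distinct samples, 1 value stood far from the others by Dixon's criterion. Chance meets it in about 1 in 20 groups of normally distributed values. A group with counts in only 1 sample always meets it, so that rate does not hold for genes near 0. Most of the 13 sets belong to the genes of fewest counts. Cybrd1 stood out at 4.67 CPM (20 counts) in ISC young male replicate 4 and at 1.46 CPM (16 counts) in Progenitor aged male replicate 1. Its other 4 cases rest on 1 to 3 counts where the rest of the group had none: 0.119 CPM in ISC aged female replicate 3, 0.225 in Progenitor aged female replicate 5, 0.414 in Progenitor young female replicate 4 and 0.629 in Progenitor young male replicate 2.

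Slc40a1 stood out at 6.91 CPM in ISC young female replicate 4, 8.09 in Paneth aged male replicate 1, 42.9 in Paneth young female replicate 2 and 18.9 in Progenitor aged male replicate 4, whose nearest neighbours were at 2.91, 3.48, 9.69 and 7.38 CPM. Ireb2 stood out at 52.5 CPM in Paneth young male replicate 6 and 42.9 CPM in Paneth aged male replicate 7, against 22.8 and 25.3 CPM in the nearest samples. The log2 ratio of Fth1 to Ftl1 was lowest, at 0.95, in ISC young male replicate 4, the sample that also held the highest ISC count of Cybrd1, against 1.08 in the nearest sample of its group.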

How the results depend on the processing

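No alternative run called a member for age. DESeq2 called more genes than edgeR for age (106 against 42 in ISCs, 142 against 86 in progenitors, 30 against 8 in Paneth cells) and sex (24 against 10, 37 against 16, 9 against 3). In Paneth cells age calls numbered 14 with limma-voom, 22 on library totals and 3 with first technical libraries, and sex calls 5 without a filter. Without animals of 26 and 27 months, age calls fell to 34 in progenitors and 2 in Paneth cells, sex calls in progenitors to 8, and members called for sex there to 0. All animals of those ages were males. Leaving out 1 animal gave 5 to 14 genes for sex in ISCs, 10 to 37 (and 0 to 1 members) for sex in progenitors and 3 to 13 for age in Paneth cells.

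On library totals 11044 and 10444 genes differed between young Paneth cells and ISCs or progenitors (3763 and 3395 with TMM), and 10585 and 9745 in aged mice (3572 and 3007), with 7 and 8 members. With first Paneth libraries progenitors and ISCs differed in 1720 (young, 3 members) and 1699 genes (aged), from 3006 and 3051, and 3 members passed between aged Paneth cells and progenitors.

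A replicate block by animal gave 3 members and 1617 genes for young and 1798 genes for aged progenitors against ISCs, and 1675 genes for aged Paneth cells against progenitors. It turned Ireb2 between progenitors and ISCs to -0.12 (young) and -0.60 (aged), and Heph between young Paneth cells and ISCs to -0.072. Replicate numbers in the titles do not pair samples within a population (median r 0.013, 0.0030 and 0.0092). A block by number gave 6 genes for sex in ISCs and turned Cybrd1 with age in Paneth cells to -0.021.

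Signs also turned on library totals. Paneth cells against ISCs became -1.59 (young) and -1.37 (aged) for Slc11a2, -1.36 and -1.09 for Fth1, -0.59 and -0.33 for Ftl1, -0.66 and -0.72 for Slc40a1, and -1.66 (young) for Heph. Against progenitors Ftl1 became -0.98 and -0.64. Ireb2 between progenitors and ISCs became -0.012 and -0.025. Small uncalled effects turned too: Ftl1 with sex to 0.0039 (ISCs) and 0.073 (Paneth cells), and Tfrc with age to -0.0069 (progenitors) and 0.090 (Paneth cells). Slc11a2 with sex in ISCs was 0.021 with limma-voom. First Paneth libraries gave 0.11, 0.046 and 0.020 for Tfrc, Heph and Ireb2 with sex. Without animals of 26 and 27 months, age effects became 0.14 for Slc40a1 in progenitors, and -0.064 for Cybrd1 and -1.35 for Slc40a1 in Paneth cells.

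Leaving out 1 animal gave sign-crossing ranges for uncalled effects: with age, Tfrc -0.0027 to 0.11 in ISCs and -0.018 to 0.098 in progenitors, Cybrd1 -0.012 to 0.22 and Slc40a1 -0.15 to 0.92 in Paneth cells. With sex they were -0.14 to 0.019 for Slc11a2 and -0.073 to 0.032 for Ftl1 in ISCs, and -0.11 to 0.0095 for Ftl1 in Paneth cells. Heph between young Paneth cells and ISCs ran from -0.010 to 0.31. The cause of these changes was not tested. Cybrd1 had 40 and 1 summed counts in young and aged ISCs and 6 and 18 in progenitors, so its values there rest on few reads.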
